A study of Homo sapiens with 6 samples.

Results

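Mitochondrial ribosomal proteins are the nucleus-encoded proteins of the ribosome that works inside mitochondria. The genes described here are the protein-coding genes whose symbols start with MRPL or MRPS followed by a number, 77 of the 38126 genes in the files, found after Ensembl gene IDs had been matched to symbols (37892 IDs matched). The choice used symbols and no measured value. RNA was sequenced from HK-2 cells, immortalised epithelial cells of the human proximal tubule that were grown without serum, in keratinocyte medium with bovine pituitary extract and EGF. Phosphoramidon, which inhibits neprilysin and other metallopeptidases that use zinc, had been given for 24 h in 3 libraries, and the other 3 are of untreated cells per the treatment label. The dose is not in the labels and no vehicle is named. The word CSE stands unexplained in the titles of the untreated libraries. All 6 libraries come from 1 cell line. Nothing states that replicates were independent cultures, and the p-values may therefore reflect technical spread alone.

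The libraries held 18714974, 24951555 and 19586776 fragments in phosphoramidon replicates 1, 2 and 3, and 23522376, 24336868 and 24844419 in untreated replicates 1, 2 and 3. Values are FPKM, fragments scaled by exon length and library size, as deposited. The label of the cells was checked against 14 proximal tubule markers, of which PAX8 alone reached a mean of 1 FPKM (68.7 to 71.7 FPKM with phosphoramidon and 61.5 to 64.9 FPKM untreated). Another 8 of them, among them the endocytic receptor LRP2 and the water channel AQP1, stayed under the 10 fragments in 3 libraries needed for a test, and the transporters SLC22A6 and SLC22A8 were listed at 0 throughout. Of the 6 that could be tested, 2 were lower and 0 higher (0 at an unadjusted p below 0.05 and 0 by limma-voom). The share called was 33.3%, where 33.6% of all tested genes were called. The 2 were SLC34A1 (-0.80 ± 0.20, adjusted p = 0.017) and GGT1 (-0.62 ± 0.17, adjusted p = 0.022). SLC34A1 rested on a mean of 11.5 fragments per library, with 2 in the lowest. Both lost the call without untreated replicate 2 and with no filter on low genes (adjusted p of 0.17 and 0.097). GGT1 lost it without phosphoramidon replicate 1 as well. Of 10 markers of other kidney cells (endothelium, leukocytes, podocytes, distal nephron, mesangium) none reached 1 FPKM, and their sum was 0.684 to 0.837 FPKM with phosphoramidon and 0.736 to 0.892 FPKM untreated. PDGFRB, of mesangium, was lower among the 3 of these that could be tested (-0.61 ± 0.19, adjusted p = 0.037), a call lost in 4 of the 6 fits without 1 library.

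Mitochondria keep a small genome of their own, which encodes core proteins of the respiratory chain and ATP synthase, and these are made on a separate ribosome, the mitoribosome. Its large subunit joins amino acids and its small subunit reads the mRNA. Both rRNAs come from mitochondrial DNA, whereas all of its proteins are encoded in the nucleus, made in the cytosol and imported. Many descend from bacterial ribosomal proteins, and others have no bacterial counterpart. Proximal tubule cells in the kidney are rich in mitochondria, which power their transport of solutes.

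The promoters of these genes are known for sites of NRF-1, of ETS factors such as GABP and of YY1, regulators of nuclear genes for mitochondria. In RefSeq's table for GRCh38.p14, 68 of the 77 genes had a promoter of 300 bases (250 before the start and 50 after it), among 35116 promoters. The stretches of 250 bases before the start are printed for the 3 genes with the largest called fold changes, MRPL54, MRPS18B and MRPS34, and for 2 with positive fold changes that were not called, MRPL39 and MRPS14. All run 5′ to 3′ on the gene's strand, and the start is that of RefSeq. By the gene bounds of GENCODE 29, every printed stretch but that of MRPS14 reaches into its gene. Capitals mark, on either strand, CCGGAA (the core of ETS sites, also within the longer ETS form CCGGAAGT), GCATGCGC (the NRF-1 core), AAGATGGCG (YY1) and CACGTG (the E-box). MRPL54 is on the plus strand at chr19:3762432-3762681, MRPS18B on the plus strand at chr6:30617590-30617839, MRPS34 on the minus strand at chr16:1773135-1773384, MRPL39 on the minus strand at chr21:25607482-25607731 and MRPS14 on the minus strand at chr1:175023426-175023675.
MRPL54: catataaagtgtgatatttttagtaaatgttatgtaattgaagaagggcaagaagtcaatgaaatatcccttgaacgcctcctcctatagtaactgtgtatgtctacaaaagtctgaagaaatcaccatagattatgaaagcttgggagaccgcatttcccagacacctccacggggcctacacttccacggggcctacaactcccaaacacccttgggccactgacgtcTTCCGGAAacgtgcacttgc
MRPS18B: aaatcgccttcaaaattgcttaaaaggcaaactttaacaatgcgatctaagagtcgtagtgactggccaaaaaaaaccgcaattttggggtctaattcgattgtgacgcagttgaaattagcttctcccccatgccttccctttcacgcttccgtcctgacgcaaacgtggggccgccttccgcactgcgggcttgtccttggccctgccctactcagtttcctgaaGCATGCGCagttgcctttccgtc
MRPS34: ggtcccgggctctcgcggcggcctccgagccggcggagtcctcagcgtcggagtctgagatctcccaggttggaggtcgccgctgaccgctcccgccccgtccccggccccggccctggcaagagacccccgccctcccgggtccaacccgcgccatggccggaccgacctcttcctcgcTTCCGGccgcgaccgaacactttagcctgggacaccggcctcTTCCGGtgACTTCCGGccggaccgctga
MRPL39: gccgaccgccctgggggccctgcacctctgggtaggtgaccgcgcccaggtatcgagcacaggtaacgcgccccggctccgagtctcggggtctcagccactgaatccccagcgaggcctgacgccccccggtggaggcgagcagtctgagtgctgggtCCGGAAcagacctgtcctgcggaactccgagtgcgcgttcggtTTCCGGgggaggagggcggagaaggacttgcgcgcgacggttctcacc
MRPS14: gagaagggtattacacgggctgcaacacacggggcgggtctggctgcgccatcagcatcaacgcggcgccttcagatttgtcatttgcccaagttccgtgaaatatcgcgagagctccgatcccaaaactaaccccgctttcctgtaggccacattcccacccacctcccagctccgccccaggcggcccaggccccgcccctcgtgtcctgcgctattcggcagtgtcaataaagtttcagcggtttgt
The stretch of MRPL54 holds CCGGAA on both strands, overlapping as TTCCGGAA, and that of MRPS18B holds the NRF-1 core. That of MRPS34 holds CCGGAA in 3 places and the longer ETS form in 1 of them. That of MRPL39 holds CCGGAA in 2 places, and that of MRPS14 holds none of these letters. MRPS24, not printed, had a higher fold change than MRPL39 and MRPS14 (0.53, not called). Its promoter of 300 bases holds CCGGAA and AAGATGGCG.

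Over the whole 300 bases, AAGATGGCG stood in 13 of the 68 member promoters (19.1%), against 1.75% of all promoters. CCGGAA stood in 38 (55.9%), against 17.2% of all promoters, and CCGGAAGT in 10 (14.7%), against 4.14%. GCATGCGC stood in 6 (8.82%), against 3.05%. The CACGTG and CCAAT shares were 8.82% and 29.4% in members, against 7.26% and 34.6% of all promoters, and the GC box GGGCGG stood in 60.3% of members, against 45.0%. Every motif was searched on both strands, CACGTG being its own reverse complement. Median GC content was 60.7% in members and 58.7% in all promoters. Split by the result described next, CCGGAA stood in 19 of 30 promoters of genes called lower and in 19 of 38 of genes not called, AAGATGGCG in 4 of 30 and 9 of 38, and GCATGCGC in 3 of 30 and 3 of 38. The sets are unlike: each member kept a single promoter, while all entries of the whole set were kept. That set was not limited to protein-coding or expressed genes, as the members are. All these counts are matches of letters, given as a description.

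Phosphoramidon-treated cells held less mRNA of many mitochondrial ribosomal proteins, by small amounts. All 77 genes passed the filter of at least 10 fragments in at least 3 libraries, and 33 of them (42.9%) were lower at an adjusted p below 0.05 (limma, Benjamini-Hochberg over all 16174 tested genes), where 17.9% of all tested genes were lower. None of the 77 was called higher, where 15.6% of all tested genes were; 2 were higher at an unadjusted p below 0.05 and 0 by limma-voom. The median log2 fold change, phosphoramidon over untreated, was -0.17 over the 77 genes, a ratio of 0.888, with an interquartile range of -0.26 to -0.08, against a median of 0.01 over all tested genes. In 69 of the 77 the fold change was below 0, against 48.7% of all tested genes. These values were scaled by TMM factors, which set the bulk of genes level between libraries. On the values as deposited the split was 3 higher and 19 lower, with a median of -0.10, beside 22.5% higher and 13.4% lower over all genes, where the scaled split over all genes was 2529 higher and 2902 lower. In RNA from whole cultures, fewer cells of a type and less RNA per cell cannot be told apart. Of the 5 epithelial markers, the keratins KRT8 (-0.57), KRT18 (-0.53) and KRT19 (-1.18) fell, while EPCAM (-0.10 ± 0.04, adjusted p = 0.14) and CDH1 (0.22 ± 0.18, adjusted p = 0.37) were not called. The 5 summed to 200.3 to 214.8 FPKM with phosphoramidon and 328 to 365 FPKM untreated, of which KRT19 alone made 90.1 to 100.5 FPKM with phosphoramidon and 189 to 215 FPKM untreated. Their part in the result was not tested.

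**Figure D1:**
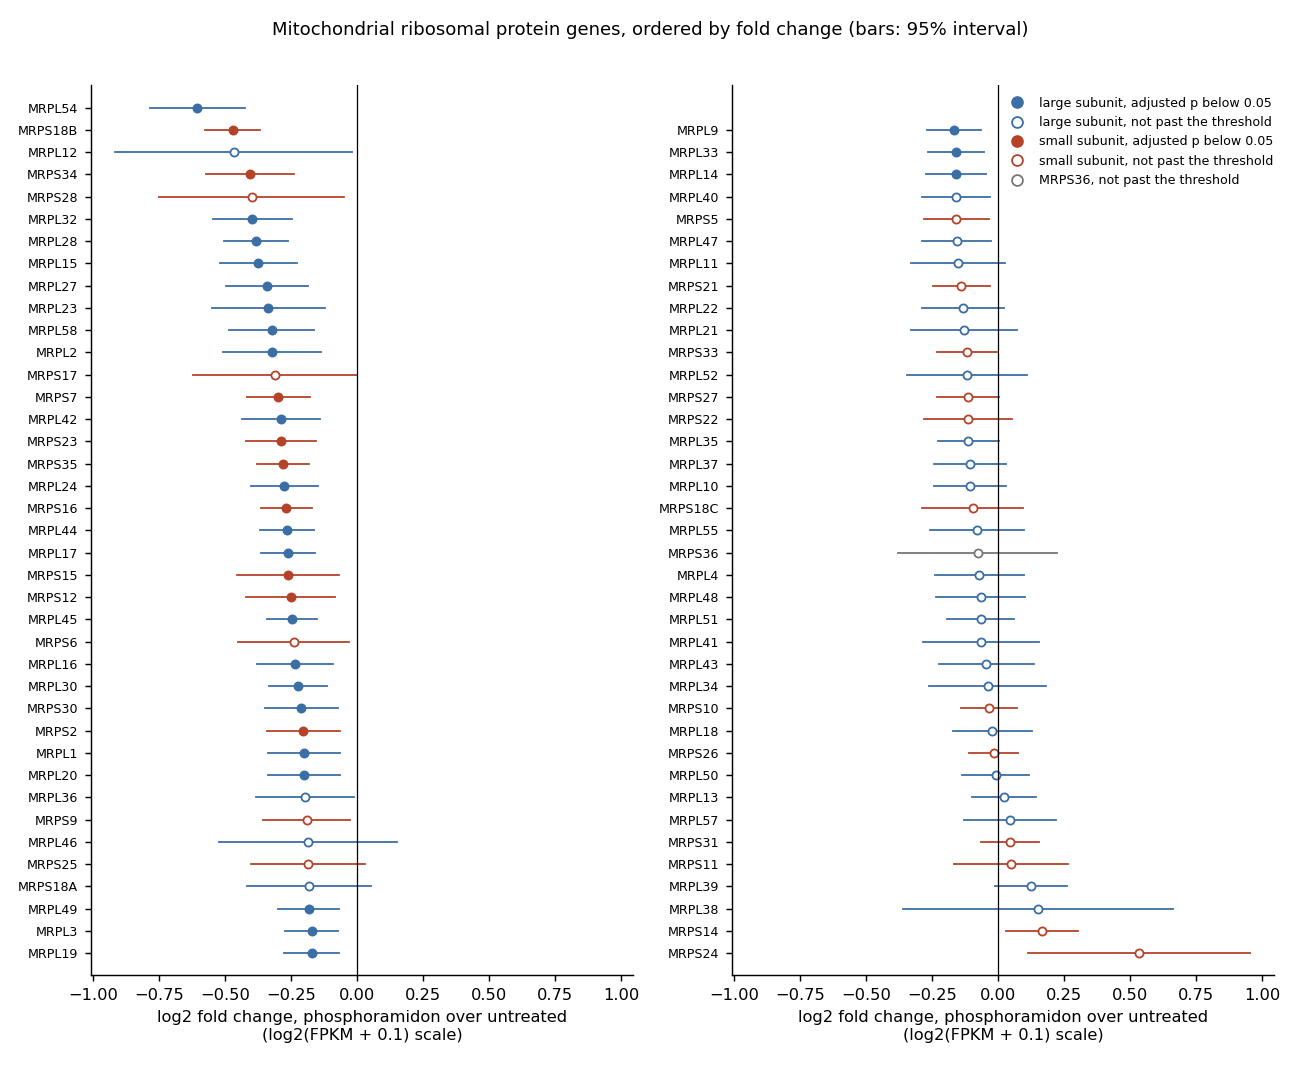
Log2 fold change of each of the 77 mitochondrial ribosomal protein genes, phosphoramidon over untreated, on the log2(FPKM + 0.1) scale with its 95% interval, ordered by value and coloured by ribosomal subunit. Filled points passed an adjusted p of 0.05: all 33 of them lie left of 0, and MRPL54 is the lowest at -0.61.

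The changes were narrow in size. Only MRPL54 was lower by more than 1.5-fold. A fold change below -0.4 was found in 4 genes, one between -0.4 and -0.1 in 52, one within 0.1 of 0 in 17, and one above 0.1 in 4. The groups did not overlap, phosphoramidon below untreated, in 44 of the 77 genes, and phosphoramidon above untreated in 4 (scaled values), where 24.2% of all tested genes lay below without overlap, 23.8% above and 48% in either direction. In the unscaled FPKM these counts were 29 and 4, where 18.4% of all tested genes lay below without overlap, 31.3% above and 49.7% in either direction. For the single genes below, overlap is that of the unscaled FPKM printed. The genes called lower had a median of 823 fragments per library and a median standard error of 0.06, and those not called had 469 fragments and 0.07, against a median standard error of 0.09 over all tested genes. Of the 33 calls, 18 held in each of the 6 fits that left out 1 library and 15 were lost in at least 1 of them.

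**Figure D2:**
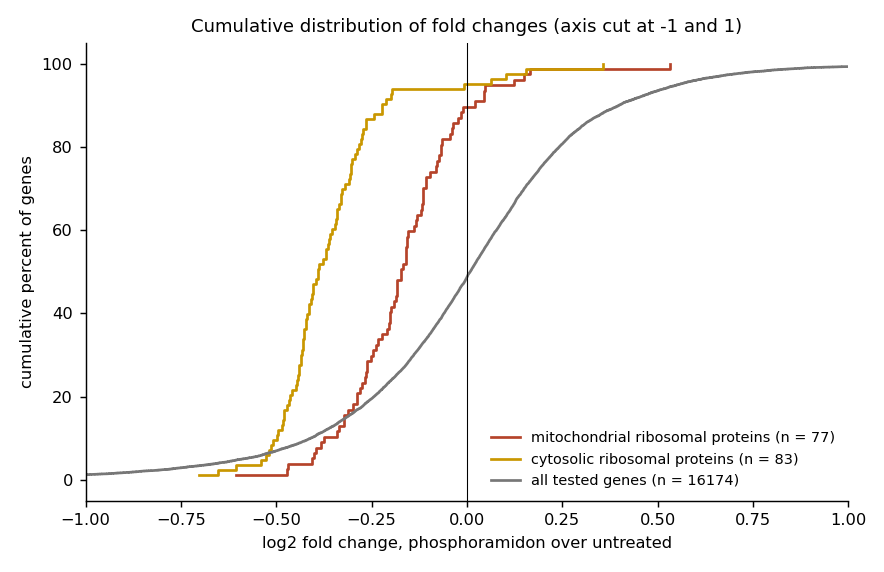
Cumulative percent of genes against log2 fold change, phosphoramidon over untreated, for the 77 mitochondrial ribosomal protein genes, 83 cytosolic ribosomal protein genes and all 16174 tested genes. The mitochondrial curve crosses its midpoint at -0.17 and the cytosolic one at -0.39, against 0.01 for all tested genes.

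Genes of both subunits were among those called. Of the 50 genes whose products sit in the large subunit, 24 (48%) were lower (median log2 fold change -0.17). Of the 26 of the small subunit, 9 (34.6%) were lower (median -0.19), where 17.9% of all tested genes were. Genes of either subunit had 0 calls in the other direction, where 15.6% of all tested genes were called higher. In the large and small subunit, 0 and 2 were higher at an unadjusted p below 0.05 and 0 and 0 by limma-voom. By ancestry, 22 of 46 genes (47.8%) with a bacterial counterpart (median -0.18) and 11 of 30 (36.7%) without one (median -0.14) were lower. MRPS18A and MRPS18B were counted here as without one, although both are related to bacterial S18, whose place MRPS18C holds. With both counted among the genes with a counterpart, a choice made after seeing the data, the counts were 23 of 48 (median -0.19) and 10 of 28 (median -0.12). In finer classes, the lower genes were 17 of 30 (56.7%) large-subunit proteins with a bacterial counterpart and 7 of 20 (35%) without. In the small subunit they were 5 of 16 (31.25%) with one and 4 of 10 (40%) without. The differences between these classes were not tested. Symbols and subunits do not match throughout: MRPS30 and MRPS18A sit in the large subunit of the human mitoribosome, and MRPS36, now known as KGD4, is a part of the oxoglutarate dehydrogenase complex. MRPS36 had a fold change of -0.08 ± 0.13 (SE, adjusted p = 0.68).

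MRPL54, a large-subunit protein with no bacterial counterpart, had the lowest fold change. The gene (ENSG00000183617) lies on the plus strand at chr19:3762664-3768575 (GENCODE 29, GRCh38). It had 9.45, 9.70 and 8.98 FPKM in phosphoramidon replicates 1 to 3, against 15.2, 12.6 and 13.2 FPKM in untreated ones, with means of 9.38 ± 0.365 and 13.7 ± 1.37 FPKM (SD, n = 3 each). All phosphoramidon libraries were below all untreated ones, and untreated replicate 1 was the highest. The log2 fold change was -0.61 ± 0.08 (SE, adjusted p = 0.00068), and adjusted p ran between 1.8e-05 and 0.0088 over the alternative settings.

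MRPL32, MRPL28 and MRPL15 followed among called large-subunit genes, each the counterpart of a bacterial protein of the same number. MRPL32, which in yeast and mouse is processed by the m-AAA protease before it joins the ribosome, had 8.75, 8.96 and 7.79 FPKM with phosphoramidon, against 10.2, 11.0 and 10.9 FPKM untreated (-0.40 ± 0.07, adjusted p = 0.0023). MRPL28 had 9.37, 8.92 and 9.49 FPKM with phosphoramidon, against 12.03, 11.5 and 11.0 FPKM untreated (-0.38 ± 0.05, adjusted p = 0.00092). MRPL15 had 30.4, 26.8 and 27.1 FPKM with phosphoramidon, against 35.4, 36.0 and 32.4 FPKM untreated (-0.37 ± 0.06, adjusted p = 0.0027). In none of the 3 genes did the groups overlap, though phosphoramidon replicate 1 stood above the other two for MRPL15.

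A second trio of large-subunit genes, also among those with the lowest adjusted p, fell by smaller amounts. MRPL44, a protein with an RNase III-like fold, had 20.0, 20.6 and 19.3 FPKM with phosphoramidon, against 23.2, 22.6 and 22.7 FPKM untreated (-0.26 ± 0.05, adjusted p = 0.0025). MRPL17, whose bacterial counterpart lies by the exit of the peptide tunnel, had 15.3, 15.6 and 14.8 FPKM with phosphoramidon, against 17.7, 17.6 and 16.9 FPKM untreated (-0.26 ± 0.04, adjusted p = 0.0025). MRPL45, which tethers the ribosome to the inner membrane at that exit, had 26.6, 26.2 and 27.7 FPKM with phosphoramidon, against 31.2, 29.8 and 30.03 FPKM untreated (-0.25 ± 0.04, adjusted p = 0.0025). The groups were apart in each, every phosphoramidon library below every untreated one.

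**Figure D3:**
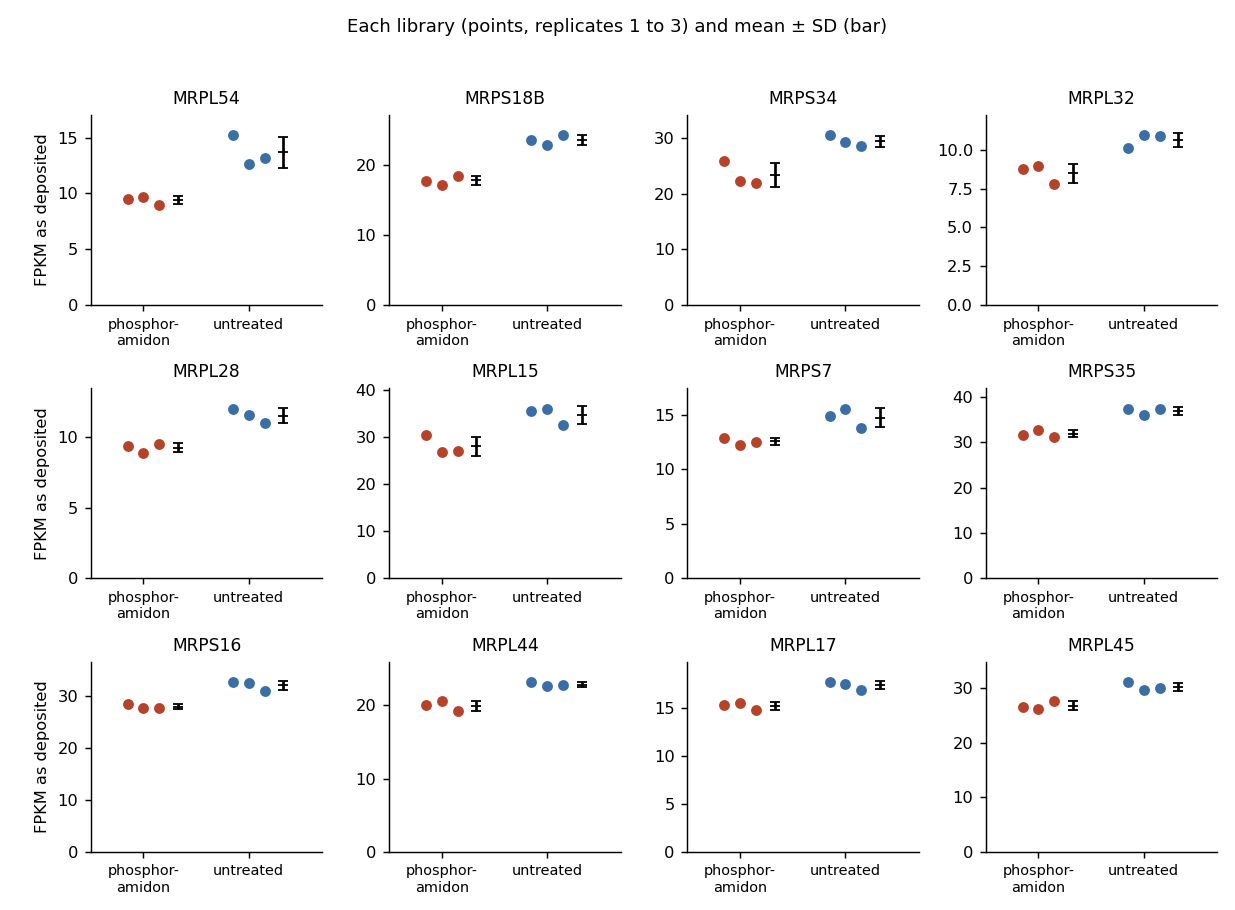
FPKM as deposited in each library (points, replicates 1 to 3, phosphoramidon left, untreated right) with mean ± SD (bars, n = 3) for the 12 genes with the lowest adjusted p. In each panel the 3 phosphoramidon points lie below the 3 untreated points; for MRPS18B they average 17.8 and 23.6 FPKM.

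In the small subunit, MRPS18B had the lowest adjusted p of the 77 genes. It is one of the 3 human relatives of bacterial S18, lies on the plus strand at chr6:30617709-30626395 (ENSG00000204568), and had 17.8, 17.2 and 18.5 FPKM with phosphoramidon, against 23.6, 22.9 and 24.3 FPKM untreated. The groups were well apart (means 17.8 ± 0.667 and 23.6 ± 0.718 FPKM, SD, n = 3 each), and the log2 fold change was -0.47 ± 0.05 (adjusted p = 0.00016). The other two relatives were not called. MRPS18A had 9.42, 11.6 and 10.5 FPKM with phosphoramidon, against 12.9, 11.1 and 10.2 FPKM untreated (-0.18 ± 0.10, adjusted p = 0.21), so that its groups overlapped. MRPS18C had 1.85, 1.93 and 1.97 FPKM with phosphoramidon, against 2.06, 1.94 and 1.87 FPKM untreated (-0.10 ± 0.08, adjusted p = 0.41, 95% interval -0.29 to 0.10), and its FPKM overlapped as well, though after scaling its groups were apart. Whether the paralogs differ in their response was not tested.

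MRPS34, without which the human small subunit is unstable, lies on the minus strand at chr16:1771890-1773155 (ENSG00000074071). It had 25.9, 22.2 and 22.0 FPKM with phosphoramidon, against 30.5, 29.3 and 28.5 FPKM untreated (means 23.4 ± 2.21 and 29.5 ± 1.01 FPKM, SD, n = 3 each). Phosphoramidon replicate 1 was again the highest of its group but below every untreated library, and the fold change was -0.41 ± 0.07 (adjusted p = 0.0035). MRPS7, the counterpart of the protein that nucleates the head of the small subunit in Escherichia coli, had 12.9, 12.2 and 12.5 FPKM with phosphoramidon, against 14.9, 15.6 and 13.8 FPKM untreated (-0.30 ± 0.05, adjusted p = 0.003). MRPS35, with no bacterial counterpart, had 31.7, 32.8 and 31.2 FPKM with phosphoramidon, against 37.4, 35.9 and 37.2 FPKM untreated (-0.28 ± 0.04, adjusted p = 0.0016). MRPS16, a conserved protein of the body of the small subunit, had 28.5, 27.7 and 27.6 FPKM with phosphoramidon, against 32.7, 32.5 and 31.0 FPKM untreated (-0.27 ± 0.04, adjusted p = 0.0017). None of these 4 genes had overlapping groups, and all 12 genes with the lowest adjusted p kept their call in each of the 6 fits that left out a library.

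The other 21 genes called lower had fold changes between -0.34 and -0.16. They include the ribosome-bound peptidyl-tRNA hydrolase MRPL58, at 14.8, 12.8 and 12.5 FPKM with phosphoramidon, against 15.4, 16.4 and 15.8 FPKM untreated (-0.32 ± 0.07, adjusted p = 0.0084). MRPS12, of the decoding centre, had 7.61, 6.78 and 7.77 FPKM with phosphoramidon, against 9.05, 8.17 and 7.93 FPKM untreated (-0.25 ± 0.07, adjusted p = 0.031), and its call held in 4 of the 6 fits without 1 library. The groups did not overlap in either gene. Both were chosen for their roles after their values were seen.

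Other large-subunit genes stood with MRPS35 at the highest levels. MRPL3, which lies near the peptidyl transferase centre, had the highest level of all, 49.7, 50.1 and 46.6 FPKM with phosphoramidon, against 52.0, 52.2 and 52.8 FPKM untreated. The groups were apart, and the fold change was -0.17 ± 0.04 (adjusted p = 0.018), which missed the threshold without untreated replicate 3 (0.054) and on the values as deposited (0.066). MRPL33 had 40.4, 37.5 and 38.2 FPKM with phosphoramidon, against 39.3, 42.4 and 41.7 FPKM untreated (-0.16 ± 0.05, adjusted p = 0.028), with groups that overlapped in FPKM but not after scaling, and its call held in 2 of the 6 fits without 1 library and not on the values as deposited (0.15). MRPL18, whose bacterial counterpart binds 5S rRNA, had 45.2, 39.5 and 38.3 FPKM with phosphoramidon, against 38.8, 39.9 and 39.9 FPKM untreated (-0.02 ± 0.07, adjusted p = 0.82, 95% interval -0.17 to 0.13). MRPL51 had 38.6, 36.1 and 38.4 FPKM with phosphoramidon, against 37.4, 40.6 and 34.9 FPKM untreated (-0.07 ± 0.06, adjusted p = 0.39, 95% interval -0.19 to 0.06). The last 2 genes had overlapping groups and were not called. In untreated cells the order of means was MRPL3, MRPL33, MRPL18, MRPL51 and MRPS35, and of the neighbours in it only MRPL3 stood apart from the next beyond the range of its libraries.

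Levels spanned a wide range. In untreated cells the mean was at least 1 FPKM in 74 of the 77 genes, at least 10 FPKM in 41 and at least 30 FPKM in 9, with a median of 10.7 FPKM. The lowest was MRPL38, at 0.409, 0.252 and 0.433 FPKM with phosphoramidon and 0.209, 0.337 and 0.363 FPKM untreated (0.15 ± 0.22, adjusted p = 0.65, 95% interval -0.36 to 0.66). MRPL46 had 0.435, 0.389 and 0.391 FPKM with phosphoramidon and 0.392, 0.482 and 0.485 FPKM untreated (-0.19 ± 0.15, adjusted p = 0.37). MRPS17 had 1.53, 1.99 and 2.04 FPKM with phosphoramidon and 1.88, 2.59 and 2.17 FPKM untreated (-0.31 ± 0.14, adjusted p = 0.11). All 3 had overlapping groups, and MRPL38 rested on a mean of 27.2 fragments per library.

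Several of the lowest levels belonged to genes that share their exons with another annotated gene. In GENCODE 29, 7 of the 77 genes had at least 50% of their coding bases inside exons of another gene on the same strand, and 5 of these 7 were among the 10 lowest levels. The shares were 100% for MRPS17 (with AC092647.5), 96% for MRPL12 (AC139530.2), 95.3% for MRPL30 (AC079447.1), 94.1% for MRPL38 (AC087289.3), 92.2% for MRPS24 (URGCP-MRPS24, a readthrough gene), 64.0% for MRPL46 (AC013489.1) and 53.0% for MRPS28 (AC036214.3). The median untreated level of these 7 was 2.21 FPKM. Of the 7, 1 was called lower, MRPL30 (14.3%, where 17.9% of all tested genes were). How the authors' counting treated fragments that fall on 2 genes is not given in the sources used here, so the levels of these genes are uncertain. Among the 57 genes with less than 10% of coding bases shared on either strand, 28 (49.1%) were lower, where 17.9% of all tested genes were. Of the 57, 0 were higher (1 at an unadjusted p below 0.05 and 0 by limma-voom), where 15.6% of all tested genes were. The median of the 57 was -0.16. Over the 77 genes, level and exon length had a Spearman correlation of -0.57, and level and the share of coding bases in other genes one of -0.34, both given as descriptions across genes, which share libraries and depth. The 34 pseudogenes of this family in the files together held 46 to 83 fragments per library with phosphoramidon and 37 to 70 untreated.

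**Figure D4:**
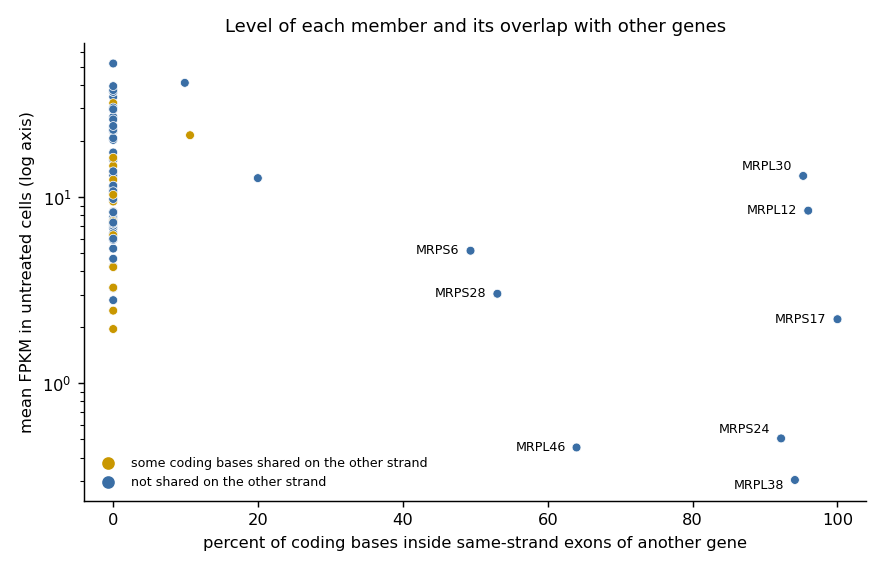
Mean FPKM of each of the 77 genes in untreated cells (log axis) against the percent of its coding bases that lie inside exons of another gene on the same strand (GENCODE 29). The 7 genes at 50% or more are named, together with MRPS6, and their levels run between 0.303 and 13.0 FPKM.

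The 3 highest fold changes, those of MRPS24, MRPS14 and MRPL38 (its values are above), were not called. MRPS24, the counterpart of bacterial S3 by the entry of the mRNA channel, had 0.759, 0.662 and 1.06 FPKM with phosphoramidon, against 0.506, 0.442 and 0.572 FPKM untreated. Its groups did not overlap, but the fold change of 0.53 ± 0.18 did not pass (adjusted p = 0.054, 95% interval 0.11 to 0.95) and rested on a mean of 38.3 fragments. It passed without phosphoramidon replicate 2 (0.042) and on the values as deposited (0.037). MRPS14 had 9.16, 8.63 and 8.12 FPKM with phosphoramidon, against 7.11, 7.47 and 7.36 FPKM untreated (0.17 ± 0.06, adjusted p = 0.065, 95% interval 0.03 to 0.30). It passed without phosphoramidon replicate 3 (0.028) and on the values as deposited (0.013). MRPL39, at 14.9, 15.3 and 17.3 FPKM with phosphoramidon, against 14.1, 13.3 and 14.0 FPKM untreated (0.12 ± 0.06, adjusted p = 0.15), was named after its values were seen, and passed on the values as deposited (0.038). The groups did not overlap in MRPS14 or MRPL39.

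MRPL12, the protein of the flexible stalk that recruits translation factors, was not called despite a fold change of -0.47 ± 0.19 (adjusted p = 0.1, 95% interval -0.92 to -0.02). It had 7.26, 4.73 and 7.5 FPKM with phosphoramidon, against 8.77, 9.46 and 7.19 FPKM untreated, so that phosphoramidon replicate 2 stood well below its group and untreated replicate 3 lay within the phosphoramidon range, though not after scaling. By limma-voom its adjusted p was 0.016. For 17 of the 44 genes not called the 95% interval lay within 0.25 of 0, so that a larger log2 change lay outside it, while for 11 of the 44 it lay wholly below 0. MRPS26, with an interval of -0.11 to 0.08, and MRPS10, with one of -0.14 to 0.07, were among the 17, named after their values were seen. MRPS11 and MRPL46, the only members that are neighbours, lie 34 bp apart on opposite strands of chromosome 15, and neither was called (0.05 and -0.19). The 77 genes lie on 21 chromosomes.

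The share of fragments on these genes was lower in every phosphoramidon library than in any untreated one. They took 0.244, 0.240 and 0.235% of fragments in phosphoramidon replicates 1 to 3, against 0.260, 0.260 and 0.256% in untreated ones (0.239 ± 0.00475 and 0.259 ± 0.00238%, SD, n = 3 each). The difference of -0.0192 percentage points stayed between -0.0216 and -0.0169 when any 1 library was left out. The median deviation of the 77 genes from their means over the 6 libraries was -0.03, -0.09 and -0.12 (log2) with phosphoramidon, against 0.12, 0.07 and 0.09 untreated. Phosphoramidon replicate 1 was the closest of its group to 0: 49 of the 77 genes were below their own mean in it, against 61 in phosphoramidon replicate 2 and 68 in phosphoramidon replicate 3, and 14, 13 and 18 in the untreated libraries. The median deviation of all tested genes stayed within 0.01 of 0 in every library.

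**Figure D5:**
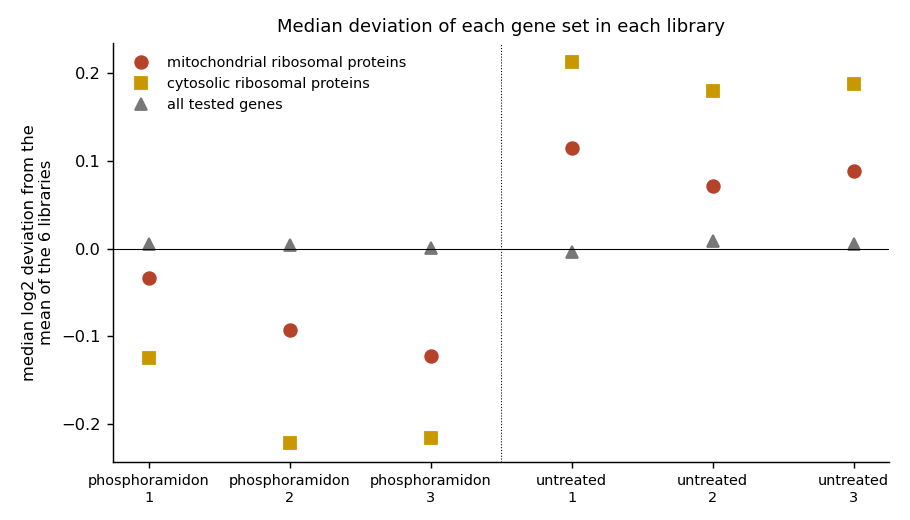
Median log2 deviation from the mean of the 6 libraries in each library, for the 77 mitochondrial ribosomal protein genes, the cytosolic ribosomal protein genes and all tested genes, after TMM scaling. The mitochondrial points lie between -0.12 and -0.03 in phosphoramidon libraries and between 0.07 and 0.12 in untreated ones, while those of all tested genes stay near 0.

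Cytosolic ribosomal protein genes, set beside them, were lower in 77 of 83 tested and higher in 1, with a median log2 fold change of -0.39. Of all tested genes 17.9% were lower and 15.6% higher. On the values as deposited 73 of the 83 were lower and 1 higher, with a median of -0.32. Both families were compared between the same 6 libraries, and the difference between them was not tested.

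Of 5 mitoribosomal proteins that carry other names, 3 (60%) fell, where 17.9% of all tested genes were lower. The median of the 5 was -0.23. AURKAIP1, a small-subunit protein, had 25.6, 25.2 and 25.7 FPKM with phosphoramidon, against 28.5, 31.9 and 27.2 FPKM untreated (-0.26 ± 0.05, adjusted p = 0.0069). GADD45GIP1, of the large subunit, had 14.2, 15.9 and 13.7 FPKM with phosphoramidon, against 18.2, 17.9 and 15.7 FPKM untreated (-0.31 ± 0.07, adjusted p = 0.013). CHCHD1, of the small subunit, had 13.3, 12.5 and 14.7 FPKM with phosphoramidon, against 14.8, 15.4 and 15.1 FPKM untreated (-0.23 ± 0.06, adjusted p = 0.014), a call lost on the values as deposited (0.066). AURKAIP1 and CHCHD1 had groups apart, and in GADD45GIP1 the highest phosphoramidon library lay above the lowest untreated one. The small-subunit proteins DAP3 (-0.11 ± 0.04, adjusted p = 0.087) and PTCD3 (-0.06 ± 0.05, adjusted p = 0.47) were not called.

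The rRNAs on which these proteins assemble are encoded in mitochondrial DNA. MT-RNR2, the rRNA of the large subunit, had 9158, 8924 and 8285 FPKM with phosphoramidon, against 10363, 9597 and 11448 FPKM untreated (-0.32 ± 0.08, adjusted p = 0.018). The groups were apart, but the call was lost without phosphoramidon replicate 2 or 3, or untreated replicate 1 or 3 (adjusted p of 0.05 to 0.062). MT-RNR1, the rRNA of the small subunit, had 2099, 1334 and 1952 FPKM with phosphoramidon, against 2329, 1884 and 2711 FPKM untreated (-0.45 ± 0.21, adjusted p = 0.15), with overlapping groups. Of the 13 mitochondrial mRNAs, which the mitoribosome translates, 0 were higher and 0 lower by limma or limma-voom (1 higher and 0 lower at an unadjusted p below 0.05). Of all tested genes, 33.6% were called by limma and 39.3% by limma-voom. The 13 mRNAs had a median of 0.12, with 12 of 13 fold changes above 0. They took 6.64 ± 0.103% of fragments with phosphoramidon and 5.94 ± 0.781% untreated (SD, n = 3 each). Whether the libraries selected poly(A) RNA, which bears on the level of these rRNAs, is not given in the sources used here.

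Of 24 mitoribosome assembly factors, 1 was higher and 2 lower (12.5% called, where 33.6% of all tested genes were), with a median of -0.03 (0.04 on the values as deposited). MPV17L2, an assembly factor of the large subunit, rose to 5.54, 5.02 and 4.74 FPKM with phosphoramidon, against 3.83, 4.10 and 3.83 FPKM untreated (0.30 ± 0.08, adjusted p = 0.016). FASTKD2, which binds the large rRNA, fell to 3.90, 4.28 and 4.25 FPKM with phosphoramidon, against 4.58, 5.27 and 5.07 FPKM untreated (-0.33 ± 0.07, adjusted p = 0.0062). The rRNA methyltransferase MRM1 fell as well (-0.36 ± 0.10, adjusted p = 0.027), a call lost without phosphoramidon replicate 2 or 3 or untreated replicate 1. In MPV17L2 and FASTKD2 the groups were apart.

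Of 14 mitochondrial translation factors, 3 were lower and 1 higher (28.6% called, where 33.6% of all tested genes were). Their median was -0.07 (0.00 on the values as deposited). The elongation factor TUFM had 55.0, 52.0 and 50.3 FPKM with phosphoramidon, against 60.6, 58.0 and 55.2 FPKM untreated (-0.21 ± 0.06, adjusted p = 0.017), and the ribosome recycling factor MRRF had a fold change of -0.32 ± 0.07 (adjusted p = 0.0075). The initiation factor MTIF3 (-0.34 ± 0.11, adjusted p = 0.04) was lower, though its groups overlapped. Its call was lost on the values as deposited (0.076) and in a fit with a replicate block (0.071). The formyltransferase MTFMT (0.28 ± 0.08, adjusted p = 0.029), which makes the initiator tRNA ready, was higher. The calls of TUFM, MTIF3 and MTFMT were lost without certain libraries: phosphoramidon replicate 2 or 3 or untreated replicate 1 for TUFM, phosphoramidon replicate 1 or 3 or untreated replicate 1 or 3 for MTIF3, and phosphoramidon replicate 2 or untreated replicate 1 or 2 for MTFMT. Of 17 mitochondrial aminoacyl-tRNA synthetases, CARS2 (-0.56 ± 0.06, adjusted p = 0.00024), WARS2 (-0.52), HARS2 (-0.37) and EARS2 (-0.32) fell, and NARS2 (0.24) rose, with its call lost in 5 of the 6 fits without 1 library. In all, 35.3% of the 17 were called, where 33.6% of all tested genes were. The median of the 17 was near 0 (-0.00, and 0.07 on the values as deposited).

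In the expression and upkeep of the mitochondrial genome, 7 of 20 genes were lower and 2 higher. The share called was 45% and the share lower 35%, where 33.6% and 17.9% of all tested genes were. The median of the 20 was -0.10 (-0.03 on the values as deposited, where 3 were lower and 3 higher). TFB2M, which opens the promoters of mitochondrial DNA, had 16.6, 18.0 and 18.0 FPKM with phosphoramidon, against 20.4, 22.1 and 21.5 FPKM untreated (-0.35 ± 0.04, adjusted p = 0.00054). SLIRP, which stabilises mitochondrial mRNAs, had a fold change of -0.25 ± 0.04 (adjusted p = 0.0031). The single-stranded DNA-binding protein SSBP1 (-0.24) and TBRG4 (-0.21), which acts on mitochondrial RNA, were lower too, TBRG4 with its call lost without phosphoramidon replicate 2 and on the values as deposited. Both subunits of the mitochondrial DNA polymerase were higher, POLG at 0.29 ± 0.06 (adjusted p = 0.0076) and POLG2 at 0.35 ± 0.06 (adjusted p = 0.003). Of 25 genes of protein import, the route by which all these proteins enter, 8 were lower (32%, where 17.9% of all tested genes were). Of the 25, 0 were higher (0 at an unadjusted p below 0.05 and 0 by limma-voom), where 15.6% of all tested genes were. The median of the 25 was -0.09 (-0.02 on the values as deposited, where 5 were lower and 1 higher). TOMM20, a receptor of the outer membrane, had 51.2, 48.4 and 51.1 FPKM with phosphoramidon, against 59.6, 62.8 and 61.7 FPKM untreated (-0.36 ± 0.04, adjusted p = 0.00027), and TIMM50, of the inner membrane, had a fold change of -0.36 ± 0.05 (adjusted p = 0.001). TIMM13 (-0.40), a chaperone between the membranes, and TIMM23 (-0.25), the inner membrane channel, were lower as well.

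Among 10 regulators of nuclear genes for mitochondria, 2 were lower and 1 higher (30% called, where 33.6% of all tested genes were). Their median was 0.01 (0.08 on the values as deposited). The coactivators PPARGC1A and PPRC1 fell. The related PPARGC1B, at a mean of 0.244 FPKM in each group, was not called (-0.05 ± 0.18, adjusted p = 0.86), and is named after its values were seen. PPARGC1A had 1.21, 1.27 and 1.16 FPKM with phosphoramidon, against 2.05, 1.93 and 1.81 FPKM untreated (-0.69 ± 0.10, adjusted p = 0.0011), and PPRC1 had 14.4, 14.2 and 14.5 FPKM with phosphoramidon, against 19.5, 20.0 and 18.8 FPKM untreated (-0.50 ± 0.04, adjusted p = 6.4e-05). In both the groups were far apart. NRF1, the factor whose core letters are capitalised in the MRPS18B promoter, rose by 0.23 ± 0.08 on the log2 scale (adjusted p = 0.049), a call lost in 5 of the 6 fits without 1 library and with other scaling factors. GABPA, the DNA-binding subunit of GABP, at 0.10 ± 0.06 (adjusted p = 0.21), YY1 at 0.06 ± 0.04 (adjusted p = 0.26) and MYC, which binds the E-box, at 0.01 ± 0.05 (adjusted p = 0.91) were not called, and are named after their values were seen.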

How the data were processed

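RNA was sequenced from HK-2 cells, 3 libraries with phosphoramidon for 24 h and 3 untreated. The deposited values are FPKM per Ensembl gene, as found from the values. Tools listed in the submitters' processing notes, without role or order, include HISAT2 2.1.0, featureCounts 1.6.0, Trimmomatic 0.38 and DESeq2 1.22.1, with the build GRCh38. Strand, annotation and the handling of overlapping genes: not given in the sources used here. Multiplied by exon length, the FPKM are whole multiples of a step that each library has (tolerance 0.05), 79.2% of genes above 0 at their GENCODE 29 length and nearly all others at a searched length, which is then no check; 35 of the 77 genes described are of the first kind and 42 of the second. These steps gave the fragments; 1 fragment on 1 kb was worth 0.0401 to 0.0535 FPKM.

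FPKM were divided by TMM factors from the tested genes' fragments (trimming 30% of M and 5% of A values) and tested as log2(FPKM + 0.1) with limma 3.58.1 (R 4.3.3), group alone, trended robust variance prior. Fold changes are on that scale and understate those of low genes. Genes with at least 10 fragments in at least 3 libraries were tested, with Benjamini-Hochberg adjustment over all of them and a threshold of 0.05. The limma fit was also run on simulated data without scaling factors, which leaves the scaling untested. Alternatives were pseudocounts of 1 and 0.01, filters, scalings, limma-voom on fragments, a replicate block and leaving out each library. Named are the 12 called genes with the lowest adjusted p in each direction, the 5 highest and 5 lowest untreated levels, the 3 most extreme fold changes each way, the MRPS18 paralogs and, in other lists, called genes (4 where over 5 were called). The result of 1 gene that this rule names is not reported here. Members and lists were chosen with earlier results of these data known.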

Additional observations from a re-analysis of the deposited data

How the results depend on the processing

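The number of mitochondrial ribosomal protein genes called lower was 33, with 0 higher. It was 33 with a pseudocount of 1 or 0.01, 35 with median-of-ratios factors and 38 by limma-voom, each with 0 higher. Over all genes the main fit called 2529 higher and 2902 lower. Median-of-ratios factors called 2403 and 2948, and limma-voom 3045 and 3306. A minimum of 50 fragments gave 40 lower and 1 higher (MRPS14), with 2601 higher and 3008 lower over all genes. The values as deposited gave 19 lower, 3 higher and a median of -0.10, with 3647 higher and 2169 lower over all genes. No filter on low genes gave 19 lower and 0 higher, with 1541 higher and 1975 lower over all genes. Leaving out each library in turn gave 22 to 34 lower and 0 to 1 higher, a median of -0.19 to -0.15, and 1744 to 2127 higher and 2241 to 2731 lower over all genes. The gene called higher was MRPS24 without phosphoramidon replicate 2 and MRPS14 without phosphoramidon replicate 3. Libraries of equal replicate number had correlations of deviations of 0.11, -0.02 and -0.01, against -0.10 to 0.12 for unequal numbers. With 3 libraries a group, these values cannot decide whether replicates were paired. A fit with the replicate block called 35 lower and 1 higher (MRPS24), with 2564 higher and 2891 lower over all genes. TMM factors from all genes above 0, an alternative chosen after seeing the data, gave 36 lower and 0 higher. With them 2287 were higher and 3125 lower over all genes. Of the 77 genes, 14 lost and 3 gained a call on the values as deposited, and 14 lost and 0 gained one with no filter; of the 36 other genes named by rule, 3 and 13 lost theirs. No fold change of a named gene changed sign where either value was past the threshold under any of these settings. With 3 libraries a group, depth limits genes such as MRPL38, at a mean of 27.2 fragments. The cause of these shifts was not tested.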
